A study of Mus musculus with 3 samples.

Results

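The embryonic globin genes Hbb-y and Hba-x and the erythroid genes Klf1, Gata1, Alas2 and Tfrc were followed across 3 two-colour oligonucleotide arrays. These 6 genes were taken by name, through probes annotated with 1 gene symbol that had a value on all 3 arrays. They are 6 of 14047 genes measured in that way, with 8 of the 19660 gene probes, and repeat probes of a gene were kept apart. No probe of the 6 genes lacked a value. The tissue came from CD1 mouse embryos of both sexes, pooled and microdissected. Channel 1 of each array held the mesenchyme from which the kidney forms, the metanephric mesenchyme, taken at 10.5 days post coitum (dpc). Channel 2 held metanephroi, the early kidneys, taken at 11.5 dpc. Both tissues were labelled as amplified RNA and set against each other directly, with no common reference. Arrays 1 and 2 carried the red/green dye order and array 3 the green/red order. Nothing in the labels says whether the arrays hold separate dissections, so the p-values measure the spread between these arrays alone, which may be technical.

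Every value below is a log2 ratio of the channels of 1 array, as the authors normalized it. A log2 ratio of 1 is a doubling of one tissue's signal over the other's, and 0 is equal signal. The sources used here do not give the numerator, so a ratio is given only by its sign, and neither sign is tied to a tissue. A ratio gives no level of a transcript, so neither the abundance of erythroid RNA nor the identity of the labelled tissues could be checked by markers. In these bulk samples, fewer red cells and less RNA per red cell cannot be told apart.

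Red cells of the early mouse embryo are large primitive erythroid cells that arise in the yolk sac and enter the circulation, so blood in an organ rudiment carries their RNA. Their haemoglobin is built from embryonic chains, among them zeta globin, encoded by Hba-x, and epsilon-y globin, encoded by Hbb-y. The zinc finger factors GATA1 and KLF1 activate the red cell program, GATA1 through GATA sites and KLF1 through CACCC boxes in globin and other promoters. ALAS2 catalyses the first step of haem synthesis in red cells, and the transferrin receptor, encoded by Tfrc, brings in iron.

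The 250 bases before the start of 4 of these genes are given because GATA1 and KLF1 act through such windows, and the ratio of Klf1 lay apart from those of the other 3 genes. It also lay apart from those of Gata1 and Tfrc, whose windows are not printed. The sequences are those of RefSeq on build GRCm38.p6, all 6 genes were found there, and Tfrc had 2 starts. Capitals mark the letters CACCC, and GATA with A or T before it and A or G after it, on either strand. A match on the opposite strand is seen reversed and complemented, as GGGTG for CACCC.
Klf1, chr8:84901732-84901981, plus strand: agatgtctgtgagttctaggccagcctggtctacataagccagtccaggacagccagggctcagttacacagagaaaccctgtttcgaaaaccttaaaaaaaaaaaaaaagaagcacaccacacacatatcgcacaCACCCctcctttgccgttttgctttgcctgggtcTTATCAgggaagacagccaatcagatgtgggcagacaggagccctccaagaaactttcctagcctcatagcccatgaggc
Hbb-y, chr7:103853208-103853457, minus strand: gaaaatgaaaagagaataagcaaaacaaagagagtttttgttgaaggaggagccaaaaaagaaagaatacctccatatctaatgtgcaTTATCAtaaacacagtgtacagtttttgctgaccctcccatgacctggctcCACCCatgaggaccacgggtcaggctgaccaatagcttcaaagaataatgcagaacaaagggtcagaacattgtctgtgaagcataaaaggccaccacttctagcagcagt
Hba-x, chr11:32276350-32276599, plus strand: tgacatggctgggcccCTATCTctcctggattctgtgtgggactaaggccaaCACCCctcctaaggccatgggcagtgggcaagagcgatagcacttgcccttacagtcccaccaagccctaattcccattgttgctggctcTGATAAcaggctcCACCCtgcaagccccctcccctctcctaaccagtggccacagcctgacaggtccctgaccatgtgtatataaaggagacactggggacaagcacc
Alas2, chrX:150547167-150547416, plus strand: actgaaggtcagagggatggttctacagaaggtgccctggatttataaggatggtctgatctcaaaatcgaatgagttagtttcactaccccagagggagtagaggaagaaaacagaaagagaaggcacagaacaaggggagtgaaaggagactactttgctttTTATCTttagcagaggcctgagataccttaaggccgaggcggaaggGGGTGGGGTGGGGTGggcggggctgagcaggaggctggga

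The windows of Klf1, Hbb-y, Hba-x and Alas2 each held both kinds of letters, with 1 GATA match in Klf1, Hbb-y and Alas2 and 2 in Hba-x. CACCC was found 1 time in Klf1 and in Hbb-y, 2 times in Hba-x and 3 times in Alas2. In Klf1 the GATA match began 80 bases and the CACCC match 114 bases before the start. The Gata1 window held 2 CACCC matches and 0 GATA matches, and the windows of Tfrc held 2 and 3 CACCC matches and 0 GATA matches. Of 32851 promoter windows of this length, 52% held CACCC and 26.5% held a GATA match, so either is common. The printed windows are the ones, of the 6 genes, that held both, and the share of all windows that held both was not computed. The E-box letters CAGNTG were in 44.8% of all windows and, of the 6 genes, in those of Klf1 and of 1 Tfrc start. No GATA and CACCC matches overlapped in the printed windows.

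Klf1 stood furthest from 0 of the 6 genes. Its log2 ratio was -1.11 on array 1, -0.95 on array 2 and -1.24 on array 3. All 3 arrays lay on the negative side, within a narrow range. The mean was -1.10 ± 0.14 (SD, n = 3), a 2.14-fold difference with a 95% interval of 1.58 to 2.90 by limma. The unadjusted p was 0.00257 and the p adjusted over all probes by Benjamini-Hochberg was 0.193, so Klf1 did not pass the threshold of 0.05. By unadjusted p it ranked 250th among 19660 probes, and 7.11% of probes had a larger mean in size.

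None of the 8 probes passed the adjusted threshold by limma, and neither did any other probe, which makes 0% of those tested. At an unadjusted p under 0.05 there were 2 of the 8, Klf1 and 1 probe of Tfrc, where 17.5% of all probes were under it, 8.39% with a negative mean like Klf1 and 9.06% with a positive one like Tfrc. The same 2 probes were those with 1 sign on all arrays. That pattern was shown by 43.7% of all probes, 21.3% negative and 22.4% positive. The other 6 had arrays on both sides of 0. In order of mean ratio the probes ran from Klf1 through Alas2, Gata1, the base probe of Tfrc, the EXT probe of Hba-x, Hbb-y and the base probe of Hba-x to the EXT probe of Tfrc. EXT and base are names used here after the probe identifiers. Neighbours among the middle 6 differed by less than the SD of either.

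**Figure D1:**
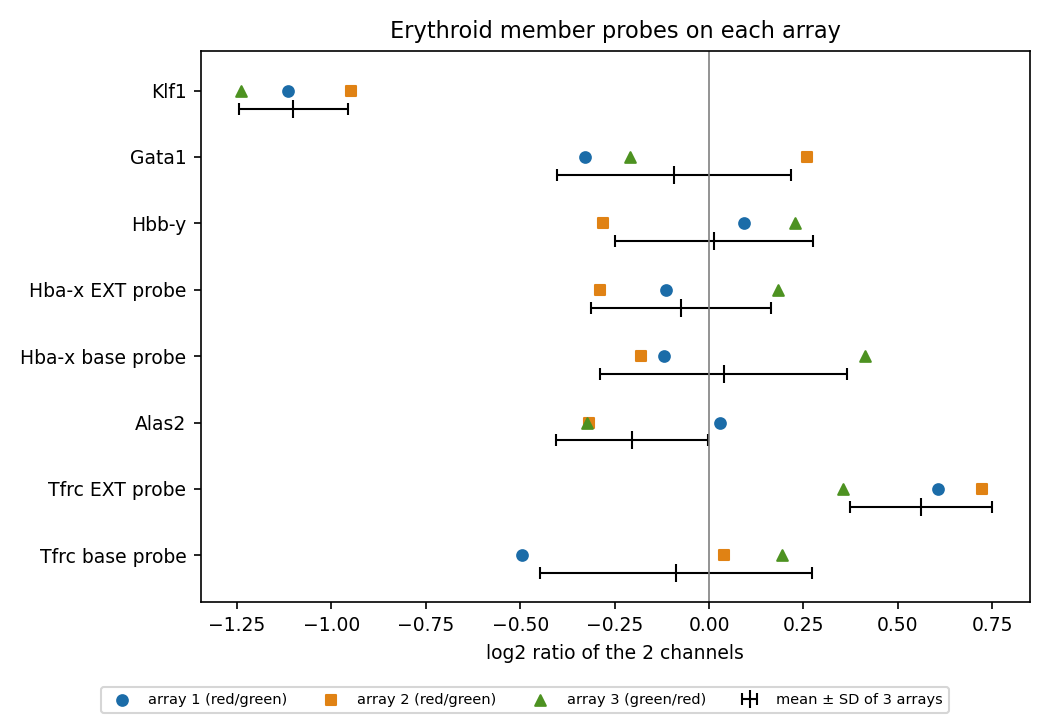
Log2 ratio of the 2 channels (x axis) for each of the 8 probes (rows) on array 1 (circles), array 2 (squares) and array 3 (triangles), with the mean and SD of the 3 arrays as a black bar below each row. Klf1 lies between -1.24 and -0.95, apart from the other 7 probes, which lie between -0.49 and 0.72.

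Gata1, which encodes the partner and upstream regulator of KLF1, did not share the ratio of Klf1. Its values were -0.33 on array 1, 0.26 on array 2 and -0.21 on array 3. The arrays straddled 0, and the mean was -0.09 ± 0.31, with a 95% interval of -0.64 to 0.46 and an adjusted p of 0.826 by limma. On each array Gata1 lay above Klf1, by 0.79, 1.21 and 1.03 in log2 ratio.

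With the deposited signs, Klf1 lay below every other probe of the 6 genes on each array. The mean difference ran from 0.90 ± 0.26 for Alas2 to 1.66 ± 0.06 for the EXT probe of Tfrc, the highest of the 8. In an exact permutation of signs over 3 arrays, two-sided, the smallest p possible is 0.25. Each of these 7 differences gave 0.25, or 0.278 adjusted over the 10 differences computed. This exact test can make no call with 3 arrays, and no other test of the differences was run. The genes nearest to Klf1 by root mean square difference over the 3 arrays, among 15339 probes, were Snrpn at 0.0184, Ttr at 0.0286 and Marcksl1 at 0.0555. Ttr encodes transthyretin, a plasma carrier protein made by yolk sac and liver. The Snrpn match came from 1 of its 2 probes, with a mean of -1.11, while the other had 0.08.

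Other regulators of red cell and blood stem cell identity spread to both sides of 0. Of 27 listed regulators, 24 were measured, 15 with a negative and 9 with a positive mean. The list's median was -0.12, beside -0.0019 over all genes, and 0.0077 for the list with array 3 turned. It was -0.05 without array 1 and -0.25 without array 2. By limma, 0 passed the adjusted threshold, and 7 had an unadjusted p under 0.05, 5 negative and 2 positive. Over all 14047 genes 9.69% were negative and 9.89% positive by that rule.

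Gfi1b, a repressor needed for red cells and platelets, had -1.04, -0.51 and -1.18 on arrays 1 to 3, a mean of -0.91 ± 0.35. Lmo2, a bridging protein of the GATA1 and TAL1 complex, had -0.70, -0.41 and -0.83, a mean of -0.65 ± 0.22. Like Klf1, both were negative on every array, with array 2 nearest to 0 and array 3 furthest from it. Ttr, Serpina1a and Cldn5, markers of other cells, showed that order too, and its share over all genes was not computed. On the positive side, Zbtb7a, a repressor of globin genes, had 0.82, 1.81 and 0.92, and Gata2, a factor of blood stem cells and endothelium, had 0.63, 0.73 and 0.34. Both were positive on every array. Another Zbtb7a probe, with no value on array 2, lay nearer to 0, with 0.11 on array 1 and 0.13 on array 3. Over all genes 22.5% were negative and 22.9% positive on every array. The unadjusted p was 0.0114 for Gfi1b, 0.0172 for Lmo2, 0.0123 for Zbtb7a and 0.0241 for Gata2, and the adjusted p ran from 0.171 to 0.197 by limma.

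The remaining 2 regulators under an unadjusted p of 0.05, Lyl1 at -0.39 ± 0.05 and Klf13 at -0.41 ± 0.14, are named here after their values were seen, as are the next ones. Zfpm1, which encodes the GATA1 cofactor FOG1, had -0.15 ± 0.11, and Nfe2, a factor of late red cells and platelets, had 2 probes with means of -0.42 and 0.09. Tal1, the partner of LMO2, had -3.73 on array 1, 0.10 on array 2 and 2.41 on array 3, so the arrays lay on both sides of 0, far apart. Bcl11a, a repressor of embryonic and fetal globin genes, had 2 probes that lay apart, with means of 0.40 and -0.93.

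**Figure D2:**
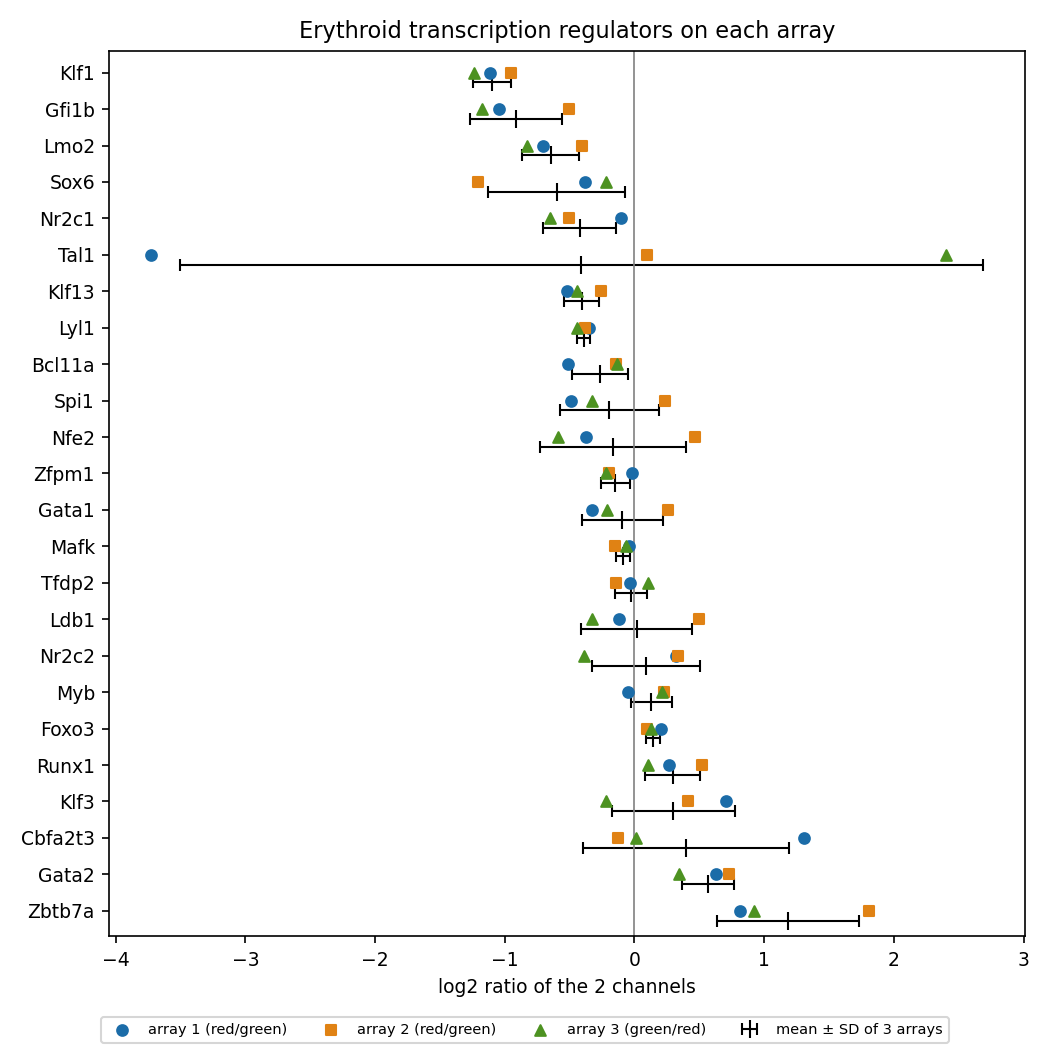
Log2 ratio of the 2 channels (x axis) for the 24 measured erythroid transcription regulators (rows, ordered by mean) on array 1 (circles), array 2 (squares) and array 3 (triangles), with the mean and SD of the 3 arrays as a black bar below each row. Klf1, Gfi1b and Lmo2 are among the genes with all arrays on the negative side, and Gata2 and Zbtb7a among those with all on the positive side. Tal1 spans -3.73 to 2.41.

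The embryonic globins lay near 0. Hbb-y had 0.09 on array 1, -0.28 on array 2 and 0.23 on array 3, a mean of 0.01 ± 0.26 with a 95% interval of -0.50 to 0.52. Hba-x was read by 2 probes. The EXT probe of Hba-x had -0.11, -0.29 and 0.18, a mean of -0.07 ± 0.24. The base probe had -0.12, -0.18 and 0.41, a mean of 0.04 ± 0.33. The probes of Hba-x differed by 0.11 ± 0.12 in mean, with the base probe higher on 2 of 3 arrays. The exact permutation p was 0.50, in a test that cannot go below 0.25 here. The adjusted p was 0.975 for Hbb-y, 0.848 for the EXT probe and 0.933 for the base probe by limma.

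The other measured globin genes were Hbb-bh1, the embryonic beta-like chain also called beta-h1, and Hba-a1, an adult alpha chain that is near-identical to Hba-a2, so that its probe may read both. Hbb-bh1 had -0.33, -0.27 and 0.48, a mean of -0.04 ± 0.45, and Hba-a1 had -0.26, -0.21 and 0.38, a mean of -0.03 ± 0.36. Of 13 listed globin and globin chaperone genes these 4 were measured, and the adult beta chains were not analysed here. Over the 5 globin probes the means ran from -0.07 to 0.04, the smallest adjusted p was 0.848 by limma, and 0 had an unadjusted p under 0.05. The intervals reach from -0.71 to 0.64 in log2 ratio, so they do not exclude differences of up to 1.64-fold on the negative side and 1.56-fold on the positive side.

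The globin probes had array 3 as their highest array in common. All 5 were highest on array 3 and positive there, all 5 were negative on array 2, and 4 were negative on array 1, with Hbb-y as the exception. Array 2 was lowest for Hbb-y and the probes of Hba-x, and array 1 for Hbb-bh1 and Hba-a1. The shares of all probes that were highest on array 3, or negative on array 2, were not computed. The 4 probes negative on arrays 1 and 2 and positive on array 3 follow a sign pattern seen in 10.6% of all probes. Array 3 is the only array of the opposite dye order. Each globin probe's contrast, array 3 minus the mean of arrays 1 and 2, was also fitted as a dye term. A dye effect cannot be told apart here from anything else particular to array 3. The contrast holds a dye effect only if the ratio of array 3 sets the tissues the same way as arrays 1 and 2. The sources used here do not say so. Otherwise a dye effect would lie in the mean of the 3 arrays, that of Klf1 included, and this was not tested. The contrast was positive, from 0.32 for Hbb-y to 0.78 for Hbb-bh1. As coded, the dye coefficient has the opposite sign and a smaller size. It ran from -0.39 for Hbb-bh1 to -0.16 for Hbb-y, with unadjusted p from 0.0774 to 0.422 by limma. None was under 0.05, where 9.76% of all probes were.

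The spread of Klf1 and of the globins moved in opposite ways with the sign given to array 3, which follows largely from the signs above. The deposited sign of array 3 was kept, since over the 19660 probes array 3 did not run against the other arrays. Spearman's rho was 0.211 to array 1 and 0.171 to array 2, but Pearson's r was only 0.0517 and 0.0148. Between arrays 1 and 2 rho was 0.466 and r was 0.324. These values do not settle the sign of array 3. Probes are not independent replicates, and no p is given. With the sign of array 3 turned, Klf1 had -1.11, -0.95 and 1.24, a mean of -0.28 ± 1.31. The globins then had means from -0.36 for Hbb-bh1 to -0.14 for Hbb-y. Their SDs went from between 0.24 and 0.45 to between 0.09 and 0.20. All globin probes but Hbb-y were then negative on every array, as were 10.6% of all probes. These are the same probes as in the sign pattern counted above, so this is no second result. None of the globin probes had an unadjusted p under 0.05, the smallest being 0.164 by limma, where 5.89% of all probes had one.

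**Figure D3:**
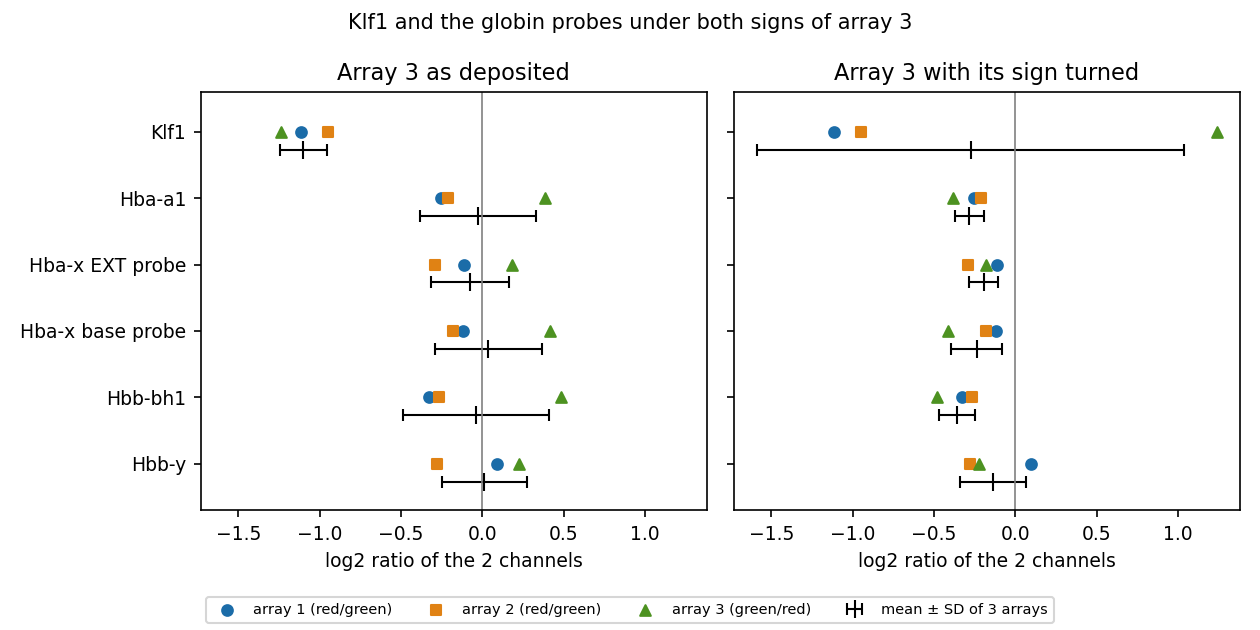
Log2 ratio of the 2 channels (x axis) for Klf1 and the 5 globin probes (rows) with array 3 as deposited (left) and with its sign turned (right), array 1 as circles, array 2 as squares, array 3 as triangles, and the mean and SD of the 3 arrays as a black bar below each row. As deposited, the arrays meet for Klf1 at -1.10 and straddle 0 for the globins. With array 3 turned, Klf1 straddles 0 and the globin means lie between -0.36 and -0.14.

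The genes nearest to the globin probes over the 3 arrays are given as likeness only. Prdx2, which encodes a peroxiredoxin abundant in red cells, was nearest to the EXT probe of Hba-x, at a root mean square difference of 0.0138, followed by Exosc3 and Nans. The base probe of Hba-x lay nearest to the ribosomal protein genes Rplp2, at 0.0128, and Rpl19, and to the histone gene H2az1. Hbb-y lay nearest to Hrh3, Prkg1 and Mmp11, at 0.0290 to 0.0438. The other globin genes were further off, ranked among about as many probes as for Klf1. From the base probe of Hba-x, Hba-a1 ranked 77th, Hbb-bh1 255th and Hbb-y 417th. From the EXT probe of Hba-x, Hbb-y ranked 212th, Hba-a1 359th and Hbb-bh1 966th. From Hbb-y, the EXT probe of Hba-x ranked 138th, its base probe 465th, Hba-a1 969th and Hbb-bh1 1823rd.

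Alas2 lay slightly on the negative side without a call. It had 0.03 on array 1, -0.32 on array 2 and -0.32 on array 3. Arrays 2 and 3 nearly met and array 1 lay at 0. The mean was -0.20 ± 0.20, with a 95% interval of -0.67 to 0.27 and an adjusted p of 0.560 by limma. Its nearest genes were Nudcd1, Alkbh3 and H2-Q10.

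The wider haem pathway showed the same lack of a shared side. Of 20 listed genes of haem synthesis and transport, 18 were measured, 10 with a positive and 8 with a negative mean, and the median was 0.05, or -0.13 without array 2, 0.0041 without array 1 and -0.09 with a dye term. By limma 0 passed the adjusted threshold and 1 had an unadjusted p under 0.05, against 19.6% of all genes. That gene was Flvcr1, a haem exporter, with 1.76, 0.89 and 0.79 on arrays 1 to 3, a mean of 1.14 ± 0.54. Abcb6, a porphyrin transporter of mitochondria, had -0.43 ± 0.21, Urod, which makes coproporphyrinogen, had -0.30 ± 0.20, and Blvrb, a biliverdin reductase, had 0.56 ± 0.47. Alad, the enzyme after ALAS2 in the pathway, is named after its values were seen, since it had 1.36, 0.89 and -2.92 and so its mean of -0.23 has an SD of 2.35.

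The probes of Tfrc gave different values. The EXT probe had 0.61 on array 1, 0.72 on array 2 and 0.36 on array 3, all positive, a mean of 0.56 ± 0.19. That is a 1.48-fold difference with a 95% interval of 1.07 to 2.03, an unadjusted p of 0.0283 and an adjusted p of 0.245 by limma. The base probe had -0.49, 0.04 and 0.19, on both sides of 0, a mean of -0.09 ± 0.36 and an adjusted p of 0.850. The EXT probe was the higher of the pair on all arrays, by 1.10, 0.68 and 0.16, a mean of 0.65 ± 0.47, with an exact permutation p of 0.25. Averaged over both probes, Tfrc had 0.24 ± 0.17 and an adjusted p of 0.448, so the unadjusted p under 0.05 rests on 1 probe. Gamt, Gata2 and Yes1 were nearest to the EXT probe, and Stx7, Gnptab and Vit to the base probe.

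Genes of iron handling lay widely apart. Of 18 listed, 17 were measured, with a median of 0.14, or 0.04 without array 2 and 0.02 with array 3 turned, and by limma 0 passed the adjusted threshold. At an unadjusted p under 0.05 there were 7 of 17, 4 positive and 3 negative, which is 41.2% against 19.6% of all genes. The iron exporter gene Slc40a1 had 1.80, 1.75 and 1.77 on the arrays, almost equal on the 3 arrays, with a mean of 1.78 ± 0.02. Steap3, the reductase that works beside the transferrin receptor in endosomes, had 0.74, 1.11 and 0.80, a mean of 0.89 ± 0.20, on the same side as the EXT probe of Tfrc, while another Steap3 probe, with no value on array 2, had -1.003 and -0.0189 on arrays 1 and 3. On the other side lay Aco1, which encodes the iron regulatory protein that binds the Tfrc transcript, with -1.16, -0.65 and -0.91, a mean of -0.91 ± 0.26. Trf, which encodes transferrin itself, the ligand of the receptor, had -1.34 ± 0.49 over 2 probes, whose own means were -1.82 and -0.86. Trf probes with no value on array 2 were negative too, 1 with -1.85 and -0.99 on arrays 1 and 3, and 1 with -3.50 and -2.43. Trf is also in the list of yolk sac and fetal liver proteins below.

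Structural genes of the red cell did not share a side either. Of 20 membrane and skeleton genes 16 were measured, 9 with a positive and 7 with a negative mean, with a median of 0.05, or 0.18 without array 1, and 3 had an unadjusted p under 0.05, against 19.6% of all genes. Ermap, an erythroid membrane protein, had 1.17, 1.09 and 1.29, a mean of 1.18 ± 0.10, and the adducin gene Add1 had -0.94, -0.97 and -0.63, a mean of -0.85 ± 0.19. Cd47, a surface protein that is also found outside red cells, had 0.63 ± 0.23, and Dmtn, an actin-bundling protein of the skeleton, had -0.48 ± 0.26. Slc4a1, the band 3 anion exchanger of red cells, is named after its values were seen and had 0.02 ± 0.34.

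In the pathway of erythropoietin and stem cell factor, 10 of 14 listed genes were measured and 4 had an unadjusted p under 0.05, 3 positive and 1 negative, against 9.89% and 9.69% of all genes. Bcl2l1, a survival gene, had 0.95 ± 0.15, the kinase gene Jak2 had 0.56 ± 0.14, the receptor gene Kit had 0.60 ± 0.31 and the kinase gene Pim1 had -0.92 ± 0.08. Epor, the erythropoietin receptor gene, named after its values were seen, had -0.47, -0.56 and -0.03, a mean of -0.35 ± 0.28. Among red cell enzymes and maturation genes 12 of 14 were measured, 10 of them positive, and 4 had an unadjusted p under 0.05, all positive, against 9.89% of all genes. They were Cited2 at 1.29 ± 0.28, Bnip3l, which clears mitochondria from maturing red cells, at 0.88 ± 0.24, Trim10 at 0.72 ± 0.42 and the carbonic anhydrase gene Car2 at 0.54 ± 0.25. By limma 0 genes of these 3 groups passed the adjusted threshold.

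Over the 7 erythroid lists together, 101 of 126 genes were measured, 56 with a positive and 45 with a negative mean. Of the 101, 26 had an unadjusted p under 0.05, which is 25.7%, against 19.6% of all genes. The median size of the mean was 0.29 for these genes and 0.31 for all genes. With array 3 turned the count was 6, where 5.55% of all genes were called by this rule. It was 13 without array 1 and 16 without array 2.

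Markers of other cells that share genes or origin with red cells were read alongside. Of 16 endothelial markers 13 had a negative mean, and the median was -0.25, or -0.15 without array 1 and -0.13 with array 3 turned. Of the 16, 5 had an unadjusted p under 0.05, all negative, against 9.69% of all genes. They were led by Cldn5 at -1.12 ± 0.31, Sox17 at -1.02 ± 0.31, Pecam1 at -0.59 ± 0.13 and Plvap at -0.43 ± 0.03. Endothelium also expresses Lmo2, Lyl1 and Tal1, and the part of endothelial RNA in the ratios of the regulators was not tested. Secreted proteins of yolk sac and fetal liver had a median of -1.03, or -0.64 without array 2 and -0.30 with array 3 turned. The median was -1.15 on array 1 and -0.78 on array 2 but 0.07 on array 3. Of 13, 8 had a negative and 5 a positive mean. At an unadjusted p under 0.05 there were 6 on the negative side and 1 on the positive side, against 9.69% and 9.89% of all genes. The positive one was Apoe, at 0.84 ± 0.11. The other positive means were those of Alb at 0.36 ± 0.23, Ahsg at 0.31 ± 0.32, Apoa2 at 0.42 ± 1.51 and Fgb at 2.14 ± 3.40. All but Apoa2 were positive on every array, and all of these positive genes are named after their values were seen. The negative ones under that p included Afp at -1.68 ± 0.07, Apoa1 at -1.58 ± 0.10, Ttr at -1.13 ± 0.15 and Serpina1a at -1.12 ± 0.30. Trf, counted above among the iron genes, was another. These negative ones lay on the side of Klf1, and their part in its ratio was not tested.

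Platelet markers had a median of 0.03, or 0.18 without array 1 and -0.03 without array 3, with 0 of 9 under an unadjusted p of 0.05. Vwf had 2 probes that lay apart, with means of -1.35 and 0.03. Gp9 had 0.42 ± 0.82, Itga2b had 0.33 ± 0.49 and Ppbp had 0.24 ± 0.13. Macrophage and leukocyte markers had a median of 0.27, or 0.16 with array 3 turned and 0.11 with a dye term. Of 13, 10 had a positive and 3 a negative mean. At an unadjusted p under 0.05 there were 4, all positive, against 9.89% of all genes. They were Adgre1 at 0.95 ± 0.55, Fcer1g at 0.86 ± 0.42, Lyz2 at 0.81 ± 0.27 and Tyrobp at 0.70 ± 0.17. Those with a negative mean, named after their values were seen, were C1qc at -0.59 ± 1.13, C1qb at -0.58 ± 0.94 and Laptm5 at -0.44 ± 0.46. By limma 0 genes of these marker lists passed the adjusted threshold.

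**Figure D4:**
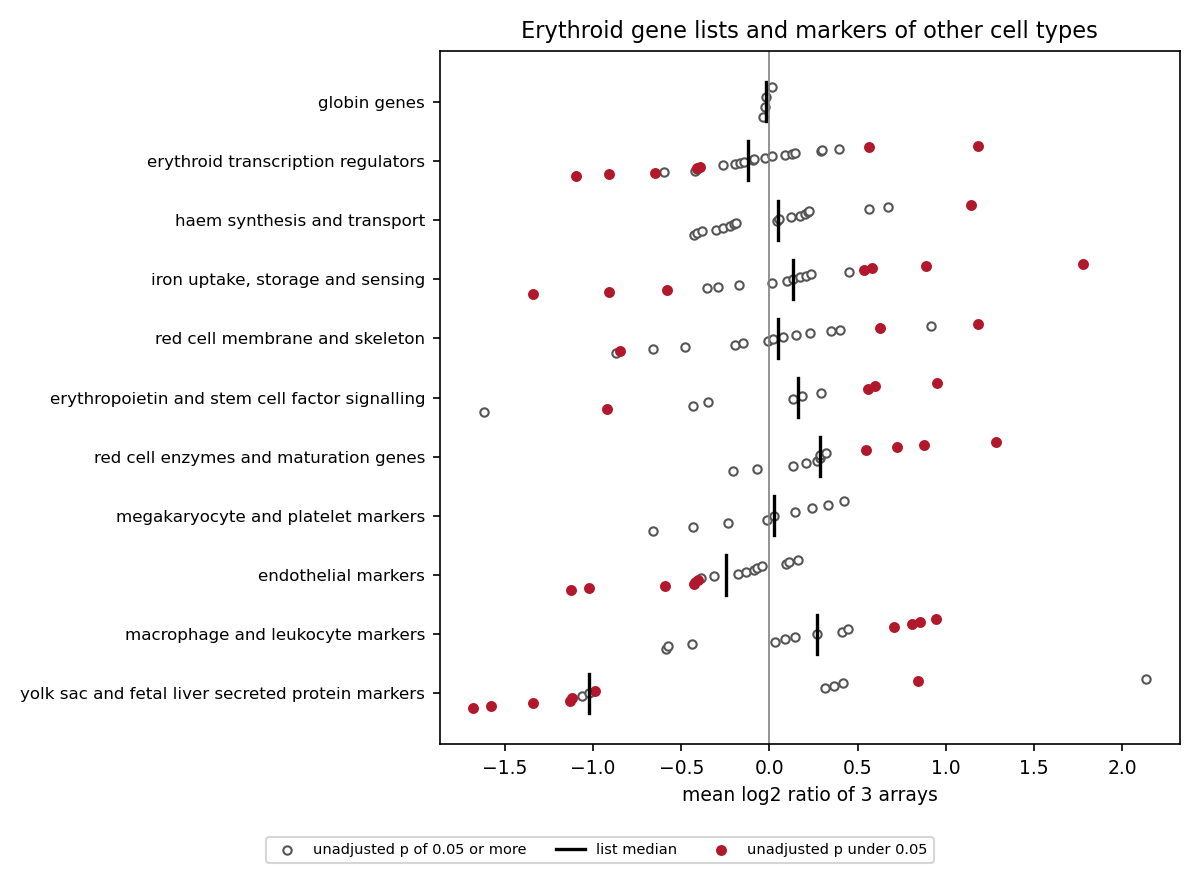
Mean log2 ratio of 3 arrays (x axis) for each measured gene of the 7 erythroid lists and of 4 lists of markers of other cells (rows). Filled red points have an unadjusted p under 0.05, open points do not, black bars are list medians, and the height within a row carries no value. The 4 globin genes lie together near 0, while the genes of the other erythroid lists spread to both sides.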

How the data were processed

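The authors quantified the scans with Imagene 5.5, per the labels, and then applied print-tip lowess and a between-array step in R. They also name a lowess fit over 20% of the data per point and a control channel minimum of 10. The deposited values are log2 ratios of 2 channels, and the lowest ratio was 0.01. No genome build was named for the probes (not given in the sources used here). Intensities were not analysed here, so signal over background is unknown, and 3 arrays limit the precision.

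The table held 22702 rows, of which 21918 were gene probes, and the remaining spots stayed out of the tests. In GEO's platform annotation 16656 gene probes had 1 symbol, 137 several and 5125 none. All 19660 gene probes with 3 values entered 1 limma fit (lmFit, eBayes; version 3.58.1, R 4.3.3) testing the mean against 0, two-sided, with Benjamini-Hochberg adjustment over all probes at 0.05. List genes were fitted likewise on 14047 genes after averaging probes of 1 symbol. Values after ± are SDs over the arrays, and intervals are limma's. The fit was also run on simulated data with independent noise on each probe, unlike these arrays, and its outcome is not given here. Named genes are the 6 genes, all measured globins, up to 4 genes of every other list by smallest unadjusted p, and the 3 nearest genes of each probe. The genes and lists were chosen with earlier results of these data known. Promoters came from RefSeq tables of build GRCm38.p6. Plots used Matplotlib 3.10.9 in Python 3.11.15. Alternatives were centring, scaling, fewer required values, a dye term, array 3 turned, other variances, array weights, limited ratios, other joining of probes and each array left out.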

Additional observations from a re-analysis of the deposited data

How the results depend on the processing

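Klf1 kept its negative side and the EXT probe of Tfrc its positive side under all 13 alternatives. Klf1 ran from -1.18 to -0.28 with adjusted p from 0.108 to 0.944 by limma, and Tfrc EXT from 0.24 to 0.66. Several alternatives could not change these sides, so their number is no measure of support. Other variances leave a mean as it is, and leaving out an array cannot turn the mean of arrays of 1 sign. No probe of the 6 genes passed the adjusted threshold under any of the 13 alternatives, and the count over all probes stayed at 0. With array 3 turned, Gata1 had 0.0467, Hbb-y -0.14, the base probe of Hba-x -0.24 and Alas2 0.0119, each on the other side of 0. Median centring gave Hbb-y -0.0015, and array weights gave the Hba-x base probe -0.0567. Averaging probes of 1 symbol gave Hba-x -0.0179 and Tfrc 0.24, unlike their base probes. With an array left out, Gata1 ran from -0.27 to 0.0245, Hbb-y from -0.0937 to 0.16, the Hba-x EXT probe from -0.20 to 0.0337, the Hba-x base probe from -0.15 to 0.15 and the Tfrc base probe from -0.23 to 0.12. All these probes lay near 0, and the cause of each change of side was not tested. At an unadjusted p under 0.05 the count of all probes was 3432, against 1158 with array 3 turned and 1377 to 3690 with an array left out. The count of erythroid genes was 26, against 6 with array 3 turned and 13 to 23 with an array left out, where fewer arrays enter the test. The ratio within each array already pairs the tissues, and no further pairing was possible because the arrays form 1 group.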

Other observations

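Some erythroid and platelet genes had values on fewer than 3 arrays and were not tested. Stat5a, a transcription factor downstream of the erythropoietin receptor, had 1.86 on array 2 and -0.54 on array 3. Socs3, an inhibitor of that pathway, had -1.89 on array 3 alone. Bach1, a haem-binding repressor, had 1.00 on array 1 and -0.20 on array 2. The platelet factor gene Pf4 had 0.49 on array 1 and 0.70 on array 3. Kitl, which encodes stem cell factor, had 1 probe with 3 values, at -2.75, -4.21 and 2.10, and 1 without a value on array 2, at -0.0484 on array 1 and 2.09 on array 3. With array 3 turned, the former had a mean of -3.02 ± 1.08 and an adjusted p of 0.701 by limma.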
